A study of Mus musculus with 8 samples.

Results

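The 10 genes described here are the Wnt receptors Fzd1 to Fzd8 and the co-receptors Lrp5 and Lrp6 in sorted mouse Paneth cells. They were chosen by gene symbol from the 53801 genes of a deposited table of read counts, and all 10 were found in it, 8 of them Frizzled receptors and 2 of them Lrp co-receptors. The table holds 8 libraries, 4 from Mll1+/- control mice and 4 from Mll1-/- knockout mice. Mll1, the product of the gene Kmt2a, is a histone methyltransferase that marks active promoters. According to the study's results, both groups also carried β-catGOF, a stabilised form of β-catenin, so that Wnt signalling was switched on below the receptors in controls and knockouts alike. The study's methods list the same mice without β-catGOF, and the labels name only the Mll1 genotype. The Cre recombinase (Lgr5-EGFP-IRES-CreERT2) is expressed from the Lgr5 promoter in crypt stem cells, in a mosaic of crypts. Recombination was induced with 1 mg tamoxifen on each of 3 days. The cells were sorted from the small intestine as EpCAM+ Cd24+ cells 10 d later, and an antibody against CD45 was included in the stain. The study assessed the loss of Mll1 protein in the crypts by staining, and the counts do not measure it. The mice were littermates and were 4 to 6 wk old at induction.

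Frizzled proteins are membrane receptors that bind Wnt ligands through a cysteine-rich extracellular domain, and Lrp5 and Lrp6 are single-pass co-receptors that join them. Together they recruit Dishevelled and Axin to the membrane, which keeps β-catenin from being degraded. In the intestine Paneth cells secrete Wnt3 towards the neighbouring stem cells, and Fzd5 is known as a receptor through which Wnt signals promote Paneth cell maturation. The comparisons made here ask which receptor RNA was the most abundant in these cells, and whether any differed between the Mll1 genotypes.

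Each library held between 13037832 and 14380240 counts, and the 10 receptors together took only 285 to 690 of them. The sum over the 8 libraries ranged from 46 counts for Fzd8 to 1666 for Lrp6. Of the 80 values, 9 were of at most 3 counts, and 4 of these 9 were in knockout 3. That library stood apart from the other 7. It had 19662 genes with a count against 22623 to 26074 elsewhere, and 2.04% mitochondrial counts against 3.26 to 8.78%. Several receptor results that rest on it are therefore also given without it, while values of marker and pathway genes include it throughout. Kmt2a itself had 719, 469, 268 and 284 counts in the controls and 523, 447, 328 and 468 in the knockouts. Its log2 fold change of -0.06 (SE 0.24) does not check the labels, because counts were summed over all exons and the deleted part was not counted apart.

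Markers of the sorted cell type were abundant in all libraries. The 12 Paneth cell markers fixed for the purpose summed to between 270755 and 541426 normalized CPM in controls and between 247573 and 766963 in knockouts. Normalized CPM are counts scaled to the library size multiplied by a factor from the trimmed mean of M values (TMM). They are therefore not shares of the library. The factor was 0.632 for knockout 3 and 0.821 to 1.34 for the other libraries, which raises the CPM of knockout 3 relative to its counts. Of 11 stromal and endothelial markers, 10 had at most 10 counts in every library, and the remaining gene, Pecam1, had 41 to 85. Among the immune markers, Cd3e, Cd79a and Cd8a had at most 1 count in a library, while Ptprc, the gene of CD45, had 11 to 201. Of the myeloid genes on that list, Itgam had at most 14 counts, Cd68 had 4 to 31 and Lyz2 had 2063 to 5910. Lyz2 is close in sequence to the Paneth cell gene Lyz1, so its counts are uncertain. The immune list summed to 144 to 473 CPM in controls and 172 to 628 in knockouts. Goblet cell markers summed to 9291 to 17800 CPM in controls and 7895 to 19039 in knockouts, with a positive log2 fold change for 4 of 8 and a negative one for 4. Enterocyte markers summed to 105 to 291 CPM in controls and 30.4 to 202 in knockouts, and 4 of the 5 tested had a negative log2 fold change. Stem cell markers summed to 784 to 1640 CPM in controls and 325 to 1057 in knockouts, with the lowest value in knockout 3. Of these markers 8 of 10 had a negative log2 fold change. All 8 enteroendocrine markers had a negative log2 fold change, and their sums did not overlap, with 202 to 706 CPM in controls and 45.3 to 177 in knockouts. All 8 tuft cell markers were also lower on average in knockouts, with overlapping sums of 266 to 767 and 134 to 495 CPM. Knockout 3 held the highest Paneth, goblet and immune sums and the lowest enterocyte and tuft cell sums. The part of cells other than Paneth cells in the receptor values was not tested, and fewer cells of a type cannot be told apart from less RNA per cell.

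Among the receptors, Lrp6 had the highest mean level per length, but it was the highest member in only 2 of 4 controls and 2 of 4 knockouts. Fzd5 was the highest in controls 1 and 2, Fzd1 in knockout 3 and Fzd6 in knockout 4. Levels between genes are given as normalized RPKM, that is the normalized CPM divided by the kilobases of merged exons. Lrp6 averaged 1.09 ± 0.21 RPKM (SD, n = 8). Fzd5 followed with 0.757 ± 0.410 and Fzd6 with 0.753 ± 0.265. Fzd7 stood at 0.478 ± 0.291, Fzd1 at 0.351 ± 0.441 and Fzd2 at 0.327 ± 0.281 RPKM. The lowest levels were those of Lrp5 at 0.185 ± 0.068, Fzd3 at 0.182 ± 0.117, Fzd4 at 0.165 ± 0.098 and Fzd8 at 0.135 ± 0.148 RPKM. This order pools the genotypes, and Fzd1 in particular had a different place in each. It was the lowest of the 10 in controls at 0.103 ± 0.072 RPKM and had rank 3 of 10 in knockouts at 0.600 ± 0.533 RPKM, or 0.342 RPKM without knockout 3. Fzd8 had rank 7 in controls and rank 10 in knockouts. In an exact sign-flip permutation test over the 8 libraries, two-sided, none of the 9 pairs of neighbours passed, and the smallest adjusted p was 0.422. With 8 libraries this test gives no unadjusted p below 0.0078, so a single pair could not pass 0.05 after adjustment over 9. The test used log2 differences, whose means ran against the order for Fzd5 and Fzd6 (-0.39), Fzd1 and Fzd2 (-0.34) and Fzd3 and Fzd4 (-0.10). For Lrp6 and Fzd5 the unadjusted p was 0.0547.

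Against all other members, Lrp6 was higher than 7 of 9 after Benjamini-Hochberg adjustment over the 9 pairs. This comparison was added after the levels had been seen. Lrp6 exceeded Lrp5, its closest relative, in 8 of 8 libraries, with a ratio of mean levels of 5.91 (exact sign-flip p = 0.0078, adjusted 0.0141). It exceeded Fzd7, Fzd3, Fzd4 and Fzd8 in 8 of 8 libraries as well, and Fzd1 and Fzd2 in 7 of 8 (adjusted p = 0.0201 for both, exact permutation). Over Fzd5 and Fzd6 it was higher in only 6 of 8 libraries, by 1.44 and 1.45 times (adjusted p = 0.0615 and 0.0781, exact permutation). These last ratios depended on the length used. With the longest annotated transcript Lrp6 exceeded all 9 members, and Fzd5 by 2.11 times. With the coding length, the ratio of Lrp6 to Fzd5 was 1.04 and Lrp6 was the higher in 4 of 8 libraries.

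**Figure D1:**
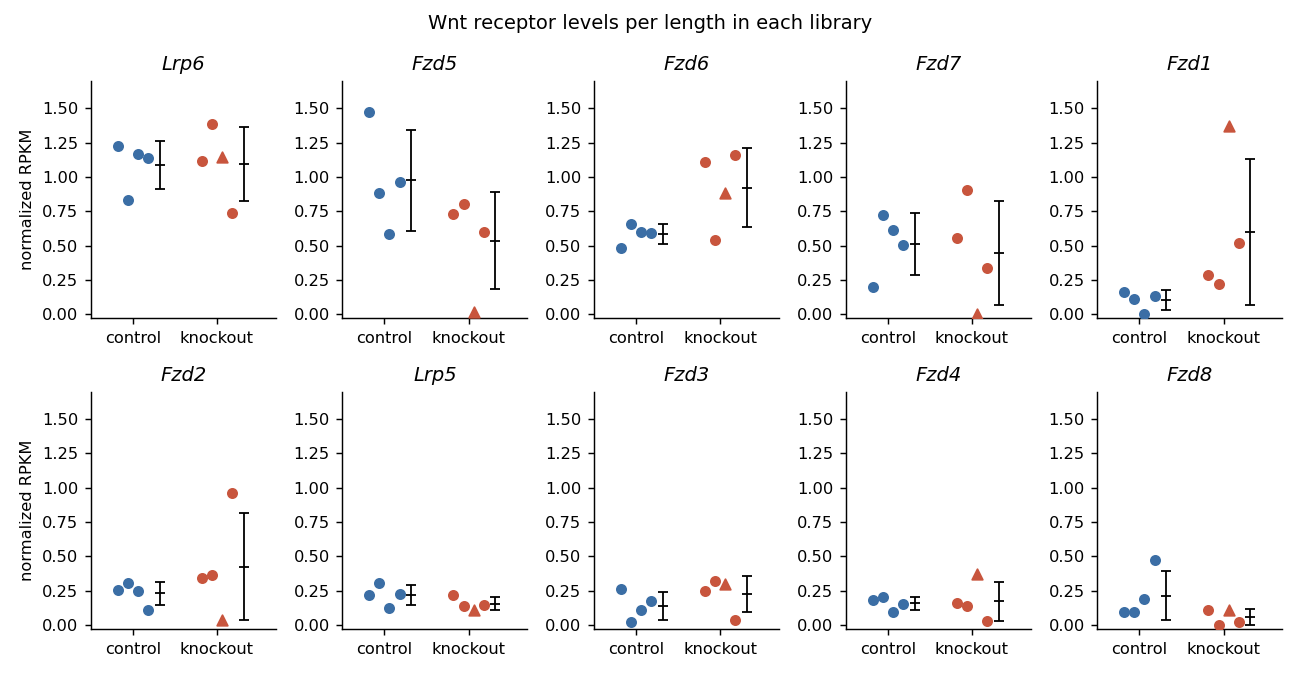
Level per length (normalized RPKM, linear axis) of the 10 receptors in each library, with controls in blue, knockouts in red and knockout 3 as a triangle. Black bars give the mean and SD of the 4 libraries of a group. The panels run from Lrp6 (mean 1.09) to Fzd8 (mean 0.135), and Fzd1 is the only panel in which all 4 knockouts lie above all 4 controls. Of all genes tested, 2.59% were separated in this way, and Fzd1 passed the filter on low counts through the knockouts.

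Fzd5 and Fzd6 had the highest mean levels among Fzd1 to Fzd8, and the leader among these members differed from library to library. Fzd9, which is not a member, lay above all of them per length of merged exons in 7 of 8 libraries and is described below. Fzd5 measured 1.47, 0.886, 0.586 and 0.962 RPKM in controls 1 to 4. In knockouts 1 to 4 it measured 0.732, 0.800, 0.017 and 0.598 RPKM. Among Fzd1 to Fzd8, Fzd5 thus led in 3 of 4 controls and in none of the 4 knockouts. It was near 0 in knockout 3, with 1 count against 45 to 162 in the other libraries. The groups overlapped, since control 3 lay below 3 of the knockouts. The Fzd5 exons, on chromosome 1 (64730558 to 64737751, minus strand, mm10), share 17.8% of their bases with the antisense gene Gm38058, which had at most 3 counts in a library. Since the strand setting of the counting was not stated, reads of the 2 genes cannot be told apart there.

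Fzd6, which is known to act in planar cell polarity and to be a weak activator of β-catenin signalling, was the steadiest Frizzled. It measured 0.483, 0.661, 0.598 and 0.592 RPKM in the controls and 1.11, 0.538, 0.880 and 1.16 RPKM in the knockouts. Knockouts 1, 3 and 4 lay above all controls and knockout 2 lay among them. Its biological coefficient of variation of 0.325 was near the median of 0.347 over all genes tested. Of the tested members only Lrp6 had a lower one, at 0.246, and Lrp5 had 0.391. The other 6 Frizzled members that were tested had values between 0.585 for Fzd4 and 0.724 for Fzd7.

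Fzd7, a receptor that intestinal stem cells are known to use, measured 0.194, 0.720, 0.616 and 0.507 RPKM in controls and 0.552, 0.902, 0 and 0.336 RPKM in knockouts. It led the Frizzled members in control 3 and in knockout 2, and had no count in knockout 3, where 3 counts would correspond to 0.353 CPM. Fzd6 led in knockouts 1 and 4, and Fzd1 led in knockout 3. None of Fzd1 to Fzd8 therefore led the others in most of the 8 libraries.

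Fzd5 was taken for a test of its share because its mean level was the highest of Fzd1 to Fzd8 in these same data, at 0.757 RPKM against 0.753 for Fzd6. The share of Fzd5 in the summed Frizzled level does not depend on the scaling of the library. It was 47.4%, 29.5%, 24.1% and 31.0% in controls 1 to 4 and 20.7%, 24.4%, 0.554% and 16.3% in knockouts 1 to 4. Only knockout 2 exceeded a control, namely control 3. The mean share was 33.0 ± 10.1% in controls and 15.5 ± 10.5% in knockouts (SD, n = 4 each), a difference of -17.5 percentage points. The exact permutation test gave p = 0.0571 (two-sided, smallest possible 0.0286), and 0.129 after adjustment over the 3 composite measures tested. Without knockout 3 the difference was -12.5 points (exact p = 0.0857). In the libraries of either run of label numbers, each with 2 controls and 2 knockouts, the difference was -15.9 and -19.1 points. With the longest transcripts and with the coding lengths the difference was -18.2 and -20.5 points (exact p = 0.0286 in both). After adjustment over the 3 measures these p-values were 0.0429 and 0.0857, so the share passed the threshold with the longest transcripts only. Fzd5 was kept in that setting although Fzd6 then had the higher mean level, so that p-value is not for the leading member. Fzd6 held 20.3 ± 3.9% in controls and 27.1 ± 7.2% in knockouts, and Fzd1 held 3.34 ± 2.32% and 18.4 ± 17.9%. Without knockout 3 the share of Fzd1 in knockouts was 9.66 ± 4.03% (SD, n = 3).

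**Figure D2:**
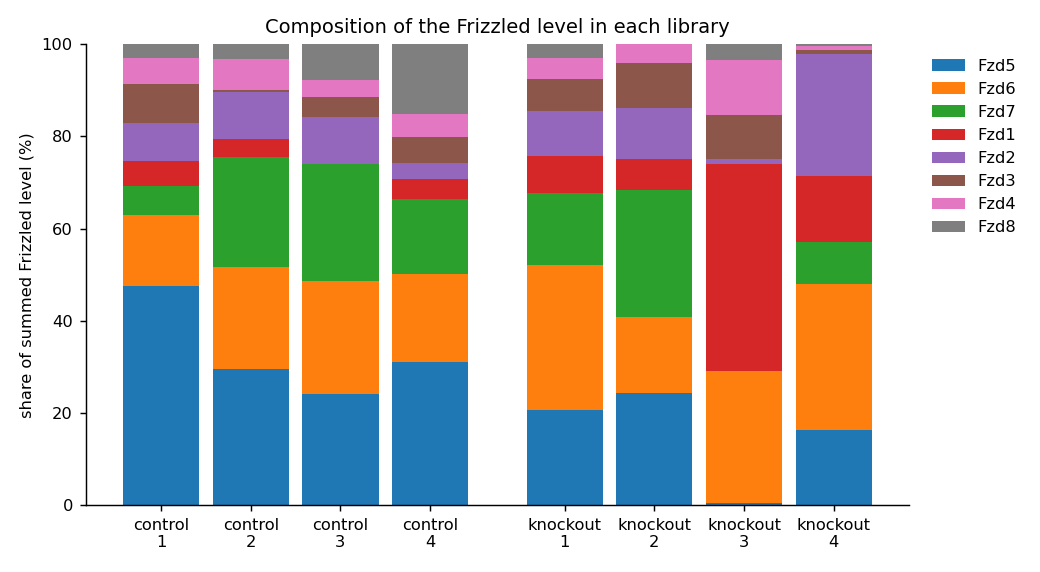
Share of each of Fzd1 to Fzd8 in their summed level (percent of the summed normalized RPKM), with 1 bar per library. The Fzd5 segment at the bottom spans 24.1 to 47.4% in controls and 0.554 to 24.4% in knockouts, and the Fzd1 segment is the widest in knockout 3 at 44.8%.

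A sum over several genes tends to vary less than its parts, so the spread of the summed Frizzled level is not a result about the receptors. The level summed over the 8 Frizzled receptors was 3.10, 3.00, 2.43 and 3.10 RPKM in controls. In knockouts it was 3.54, 3.28, 3.07 and 3.66 RPKM. Knockout 3 lay within the range of the controls, with 44.8% of its sum from Fzd1. The means were 2.91 ± 0.32 and 3.39 ± 0.26 RPKM (SD, n = 4 each), a mean log2 difference of 0.22 (exact permutation p = 0.0857, adjusted 0.129). Without knockout 3 it was 0.27 (exact p = 0.0286, adjusted 0.0857). With the longest transcripts it was also 0.27 (exact p = 0.0286) and passed after adjustment (0.0429), and with the coding lengths it was 0.12 (exact p = 0.543). Within the runs of label numbers it was 0.16 and 0.29.

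No receptor was called different between the genotypes. Fold changes came from edgeR's quasi-likelihood test over all 13439 genes that passed the filter on low counts, with p-values adjusted by the Benjamini-Hochberg method. A call needed an adjusted p no higher than 0.05 and, in either direction, a log2 fold change no smaller than 0.5. Of the 10 members 9 were tested, and 0 of 9 were called, against 0.186% of all genes tested. At an adjusted p of at most 0.1 it was again 0 of 9, against 0.283%. At an unadjusted p under 0.05 it was 1 of 9, against 6.88% of all genes. DESeq2 and limma-voom also called 0 of 9 members, against 138 and 101 of all 13439 genes. Each had 1 member at an unadjusted p under 0.05, and the share of all genes at that limit was not counted for these tools. In edgeR without a filter on low counts 1 member, Fzd1, was called, against 0.783% of the 37039 genes then tested. The log2 fold change was positive for 6 members and negative for 3, with a median of 0.09 against 0.01 over all genes.

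Fzd1, a β-catenin-activating Frizzled, showed the largest difference of the members. It had 11, 6, 0 and 7 counts in the controls and 20, 16, 49 and 36 counts in the knockouts. Every knockout was above every control, also in normalized CPM. Among all genes tested, 2.59% were separated in this direction and 1.93% in the opposite one, which no tested member was. At least 10 counts were reached in 1 control and in 4 of 4 knockouts, so Fzd1 passed the filter on low counts through the group in which it is high, and its separation and fold change are given as a description. The mean was 0.431 ± 0.301 CPM in controls and 2.52 ± 2.24 CPM in knockouts, or 1.43 ± 0.67 CPM (SD, n = 3) without knockout 3. The log2 fold change was 2.45 (SE 0.80, 95% interval 0.70 to 4.21). In edgeR's quasi-likelihood test, unadjusted p = 0.0104 and adjusted p = 0.479, so Fzd1 did not pass the threshold. Without a filter on low counts the log2 fold change was 2.44 and it did pass (adjusted p = 0.0311 by edgeR). It was 1.67 without knockout 3. The difference in mean log2 CPM, with 1 count added, was 0.77 in the first run of label numbers and 3.93 in the second, which holds control 3 and knockout 3.

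The promoters of Fzd5, which led the Frizzled members in 3 of 4 controls, and of Fzd1, the member with the largest difference, are shown for context. Mll1 carries a CXXC domain that binds unmethylated CG dinucleotides. Promoter windows of 300 bases, from 250 bases before to 50 after the start site, were available for 4 of the 10 members, Fzd1, Fzd4, Fzd5 and Fzd7 (RefSeq, GRCm38.p6). The sequences run 5′ to 3′ on the gene's strand, and capitals mark CG dinucleotides. The windows are chr1:64737701-64738000, minus strand, for Fzd5 and chr5:4758167-4758466, minus strand, for Fzd1.
Fzd5: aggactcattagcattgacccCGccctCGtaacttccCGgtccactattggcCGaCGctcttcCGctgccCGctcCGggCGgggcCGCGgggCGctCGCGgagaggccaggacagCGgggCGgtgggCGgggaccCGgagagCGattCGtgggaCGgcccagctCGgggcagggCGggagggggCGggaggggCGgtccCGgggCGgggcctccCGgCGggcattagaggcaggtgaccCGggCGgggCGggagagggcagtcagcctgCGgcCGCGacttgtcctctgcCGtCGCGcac
Fzd1: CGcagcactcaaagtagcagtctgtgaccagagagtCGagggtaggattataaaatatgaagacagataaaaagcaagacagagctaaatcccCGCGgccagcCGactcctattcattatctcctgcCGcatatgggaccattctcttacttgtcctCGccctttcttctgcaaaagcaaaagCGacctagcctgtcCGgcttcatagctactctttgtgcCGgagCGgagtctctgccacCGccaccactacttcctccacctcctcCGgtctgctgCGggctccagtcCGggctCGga
The Fzd5 window holds 38 CG dinucleotides and the Fzd1 window 16. The median of all 32851 windows was 7, and 4.95% of them held as many as Fzd5 and 33.0% as many as Fzd1. Fzd4 has 32 and Fzd7 24. The core letters of the Tcf/Lef motif, CTTTGA on either strand, occur once in the Fzd1 window, from its base 9 on the opposite strand. They do not occur in those of Fzd4, Fzd5 and Fzd7, and 16.0% of all windows hold them. The start sites in RefSeq lie 1 base from that of the deposited annotation for Fzd5 and 181 bases for Fzd1. These counts of letters are descriptions only.

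For the remaining Frizzled receptors the intervals were wide. Fzd5 averaged 6.75 ± 2.55 CPM in controls and 3.71 ± 2.47 CPM in knockouts, with a log2 fold change of -0.83 (SE 0.62, 95% interval -2.18 to 0.51, adjusted p = 0.898 by edgeR). Without knockout 3 it was -0.47. Fzd6 averaged 2.81 ± 0.36 and 4.45 ± 1.37 CPM, with a log2 fold change of 0.66 (SE 0.33, interval -0.06 to 1.39) and an adjusted p of 0.779 by edgeR. For Fzd7 the log2 fold change was -0.14 (SE 0.76, interval -1.81 to 1.53), and it was 0.24 without knockout 3.

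Fzd2, a receptor of both the β-catenin and the Wnt5a branch of the pathway, had 15, 14, 10 and 5 counts in controls and 21, 23, 1 and 58 in knockouts. The highest and the lowest library were both knockouts, and the log2 fold change was 0.91 (SE 0.71). It was 0.15 without knockout 4 and 1.26 without knockout 3, with an adjusted p above the threshold in both. Fzd3, best known for axon guidance and planar polarity, had 53, 3, 15 and 28 counts in controls and 53, 71, 32 and 8 in knockouts, with a log2 fold change of 0.67 (SE 0.71). Both groups thus spanned most of its range, and the estimate moved between 0.30 without control 2 and 1.17 without control 1. Fzd4, the receptor of Norrin as well as of Wnt ligands, had 19, 17, 7 and 13 counts in controls and 18, 16, 21 and 3 in knockouts. Its log2 fold change was 0.09 (SE 0.66), and it turned to -0.54 without knockout 3.

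Fzd8 had too few counts to pass the filter. It had 5, 4, 7 and 20 counts in controls and 6, 0, 3 and 1 in knockouts. Only knockout 1 had more than 3 counts among the knockouts, and it had more than controls 1 and 2. Fitted without the filter, the log2 fold change of Fzd8 was -1.92 (SE 0.99, adjusted p = 0.608 by edgeR). Fzd1, Fzd2, Fzd7 and Fzd8 are annotated as a single exon, with exons covering 100% of the gene's span. For the members with introns this share was 9.57% for Lrp5, 11.3% for Lrp6, 15.0% for Fzd6, 18.3% for Fzd3, 76.5% for Fzd4 and 96.1% for Fzd5.

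**Figure D3:**
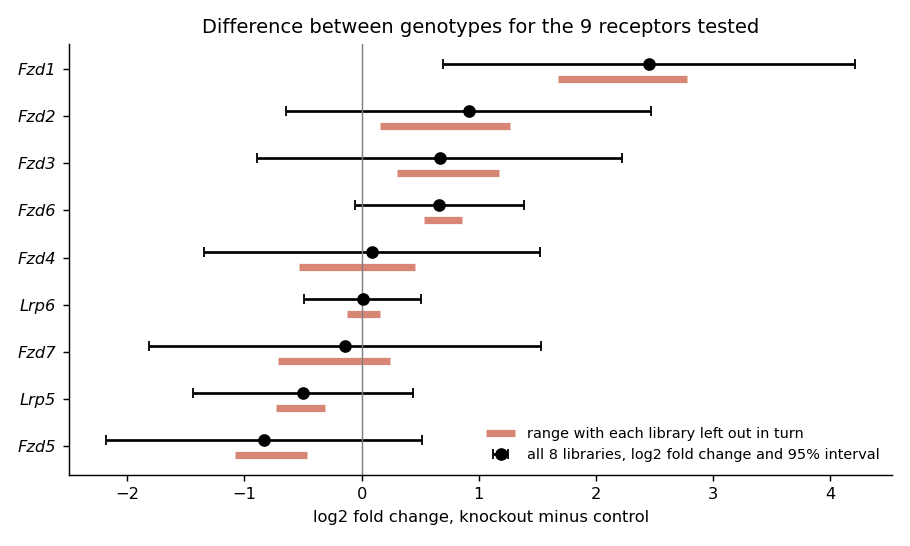
Log2 fold change (knockout minus control) of the 9 receptors tested. Black points and bars are the edgeR estimate from all 8 libraries with its 95% interval, and red lines span the estimates obtained when single libraries were omitted. The Fzd1 interval (0.70 to 4.21) lies above 0 before adjustment over all genes, but Fzd1 passed the filter on low counts through the knockouts and its adjusted p by edgeR was 0.479. The red lines of Fzd4, Lrp6 and Fzd7 cross 0.

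The 2 co-receptors did not pass the test either, and they differed in how precisely they were measured. Lrp6 had 266, 143, 177 and 196 counts in controls and 257, 329, 133 and 165 in knockouts. These counts correspond to 14.9 ± 2.4 and 15.0 ± 3.7 CPM (SD, n = 4 each). The groups overlapped almost completely, with the highest and the lowest normalized value both in knockouts. The log2 fold change of 0.01 (SE 0.23) had a 95% interval of -0.49 to 0.51, the narrowest among the members. Lrp5, which is known for bone mass and eye vasculature as well as for crypt Wnt signalling, had 34, 37, 13 and 28 counts in controls and 36, 23, 9 and 23 in knockouts. Its log2 fold change was -0.50 (SE 0.43, interval -1.44 to 0.44). It was -0.31 without control 2 and -0.39 without knockout 3, which held the lowest value.

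Lrp6 exceeded Lrp5 per length by 2.75 to 10.5 times in individual libraries, as a ratio of RPKM with no count added. The log2 ratio with 1 count added was 2.44, 1.43, 3.18 and 2.27 in controls and 2.31, 3.29, 3.25 and 2.30 in knockouts. Mean log2 ratios of 2.33 ± 0.72 and 2.79 ± 0.56 did not differ beyond the spread (difference 0.46, exact permutation p = 0.371). The difference was 0.86 and 0.05 in the 2 runs of label numbers, and it moved between 0.16 without control 2 and 0.74 without control 3. Without knockout 3 it was 0.30. Knockout 3, in spite of its few genes, lay within the range of the other libraries for Lrp6. For the 10 members it was the lowest library for 4, Fzd2, Fzd5, Fzd7 and Lrp5, and the highest for 2, Fzd1 and Fzd4.

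The genes whose pattern over the 8 libraries was most like that of Lrp6 were Dpp9, Ago2, Zbtb41, Prpsap2 and Ctdsp1. The root mean square difference of their centred log2 CPM from that of Lrp6 was between 0.061 and 0.123. The median over the 10565 candidate genes, those with at least 0.5 times the level of Lrp6, was 0.459. None of the 5 was called between the genotypes, which follows from their choice by likeness to Lrp6 with its log2 fold change of 0.01.

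Among receptors outside the chosen list, Fzd9 had a higher level per length than any Frizzled member. Fzd9 had 43, 39, 64 and 66 counts in controls and 49, 67, 70 and 60 in knockouts, over only 2293 exon bases. Its level was 1.93 ± 0.82 RPKM (SD, n = 8), and it lay above every Frizzled member in 7 of 8 libraries, the exception being control 1 with its high Fzd5. In the exact sign-flip test, added after the values were seen, it exceeded all 8 Frizzled members (adjusted p at most 0.0156), and Fzd5 by 2.56 times on the means. With coding lengths it exceeded 5 of 8, and its mean was 0.837 times that of Fzd5. Its counts did not differ between the genotypes beyond the spread (log2 fold change 0.14, SE 0.40). Fzd10 had at most 5 counts in a library.

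Around the receptors, the pathway lists are described by their counts, to be read against the 0.186% of all genes tested that were called. Of the 18 receptor partners and turnover factors, 12 were tested and 0 called. The most abundant of them were Lgr4, a receptor of R-spondins, with a log2 fold change of -0.20 (SE 0.21), and Tspan12, a partner of Fzd4 in Norrin signalling, with 7.05 ± 2.58 RPKM in controls and 10.6 ± 2.0 in knockouts (log2 fold change 0.59, SE 0.25). Lgr5, which also receives R-spondins, had 4.63 ± 0.36 and 4.77 ± 0.78 RPKM. R-spondins stabilise Frizzled receptors by removing the ubiquitin ligases Rnf43 and Znrf3. Rnf43 had 1.66 ± 0.35 RPKM in controls and 3.02 ± 0.58 in knockouts, with every knockout above every control in CPM, as in 2.59% of all genes tested. Its log2 fold change of 0.87 (SE 0.22) did not pass the threshold (adjusted p = 0.272 by edgeR). For Znrf3 the log2 fold change was 0.58 (SE 0.26, adjusted p = 0.727 by edgeR) and the groups overlapped.

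Of the 26 Wnt ligands and secretion factors 4 were tested and 0 called. Wnt3, the ligand that Paneth cells secrete, stood at 8.35 ± 1.64 and 6.63 ± 1.53 RPKM (log2 fold change -0.34, SE 0.21). Wls, which carries Wnt proteins to the cell surface, stood at 2.58 ± 0.65 and 3.50 ± 0.28 RPKM. Porcn, which acylates them, stood at 0.420 ± 0.164 and 0.236 ± 0.189 RPKM, with no count in knockout 3.

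Of the 17 secreted and membrane Wnt antagonists, 6 were tested and 1 was called, against 0.186% of all genes tested, and it was higher in knockouts. Notum, an enzyme that removes the lipid of Wnt proteins and so prevents their binding to Frizzled receptors, had 5, 4, 10 and 10 counts in controls and 341, 386, 96 and 233 in knockouts. All knockouts, knockout 3 included, lay far above all controls. Its log2 fold change was 4.89 (SE 0.40, adjusted p = 1.9e-04 by edgeR). The Notum exons share 29.4% of their bases with the antisense gene Notumos, which had 0 to 39 counts in a library. Since the strand setting was not stated, reads of these genes cannot be told apart there. Wif1, a secreted protein that binds Wnt ligands, had 0, 14, 4 and 2 counts in controls and 107, 186, 31 and 90 in knockouts. It also passed the filter on low counts through the knockouts, and its values are a description. Wif1 passed only the limit of 0.1 (log2 fold change 4.03, adjusted p = 0.0766 by edgeR). Dkk3, a member of the Dickkopf family, had 22 counts in knockout 3 and 369 to 452 in the other knockouts, against 24 to 55 in controls. Its log2 fold change was 2.54 (SE 0.56, adjusted p = 0.162 by edgeR). Shisa2, which retains Frizzled receptors in the endoplasmic reticulum, had one of -1.03 (SE 0.51).

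All 17 genes that relay the signal from the receptor were tested and 0 were called. The kinase gene Csnk1a1 had 11.7 ± 1.0 and 12.3 ± 1.0 RPKM. Axin2, a feedback scaffold of β-catenin degradation, had 3.69 ± 1.35 and 6.88 ± 2.47 RPKM, with a log2 fold change of 0.90 (SE 0.31, adjusted p = 0.505 by edgeR). Csnk1g3, of the family of kinases that phosphorylate Lrp6, had a log2 fold change of 0.08 (SE 0.25). Of the 12 planar polarity partners of Frizzled 8 were tested and 0 called. Vangl2, Dact1 and Celsr1 were the most abundant of these, at 0.499, 0.363 and 0.346 RPKM over the 8 libraries. Of 12 other receptors related to Lrp6, 9 were tested and 0 called. Lrp10 and Vldlr had the highest levels among them, at 4.39 and 1.99 RPKM, both above the 1.09 RPKM of Lrp6 on the same scale.

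**Figure D4:**
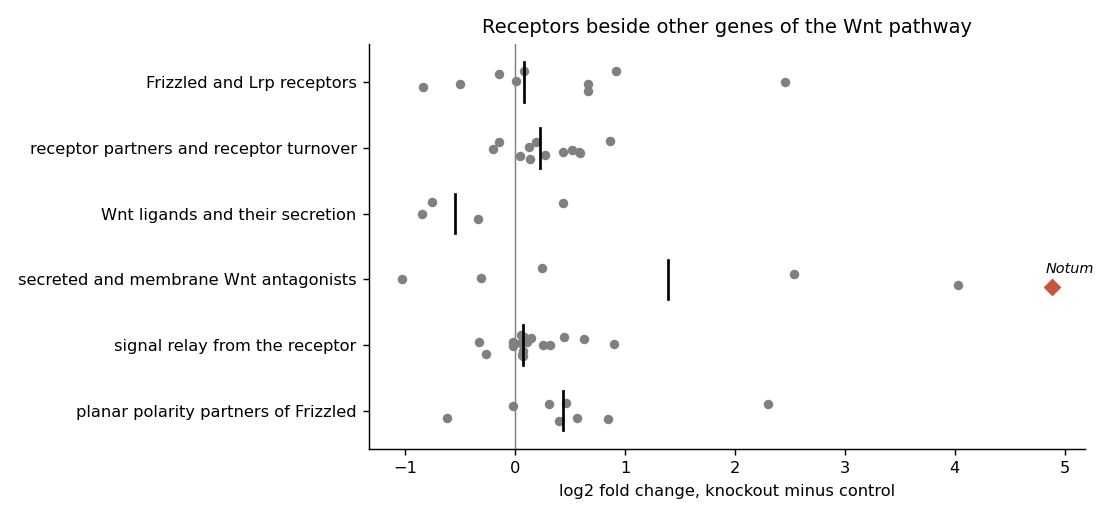
Log2 fold change (knockout minus control, edgeR) of the tested receptors and of the tested genes in 5 other lists of the Wnt pathway. Each point is a gene, vertical bars are list medians, and the red diamond marks the only gene called, Notum at 4.89. Notum passed the filter on low counts through the knockouts. The receptors have a median of 0.09, and the relay genes one of 0.07, with a range from -0.33 (Dvl2) to 0.90 (Axin2).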

How the data were processed

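RNA of sorted Paneth cells from 4 control and 4 knockout mice was sequenced after amplification of full-length cDNA (Smart-seq2), without molecular identifiers, so intervals and floors cover counting error and the spread between libraries only. The authors aligned reads to mm10 with GSNAP and assigned the uniquely mapped ones to Ensembl 92 genes with featureCounts 1.6.3; the submitters' notes also name bcl2fastq 2.19.1. The deposited values are raw counts per gene, with no normalization. The strand setting was not given in the sources used here.

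Of 53801 Ensembl identifiers, 53620 had a symbol. The 92 spike-in rows, with at most 11 counts in a library, were left out. Groups follow the labelled genotype, and replicate numbers are names that pair no libraries. Control 4 and knockout 4 share the number in their titles. The labels do not say what it stands for; if it names the animal, 1 of these labels may be wrong, and n = 4 per group rests on the study's description of independent mice. No 2 libraries of a group agreed within sampling noise (chi-square per degree of freedom at least 10.8). Counts were tested in edgeR 4.0.16 (R 4.3.3) with TMM scaling, filterByExpr (minimum count 10, minimum total 15) and a robust quasi-likelihood fit on genotype over all 8 libraries; the common biological coefficient of variation was 0.376. Intervals of fold changes use the test's t distribution. DESeq2 1.42.0 and limma 3.58.1 (voom) were alternatives. Tests were tried on simulated data with 200 changed genes. Single values were compared by exact permutation over the 70 assignments of libraries, and levels by all 256 sign flips, on log2 levels with 1 count added. A count of 3 corresponds to between 0.173 and 0.353 CPM. Lengths of transcripts and coding sequences came from GENCODE M21 (GRCm38). Fzd8 has a longer transcript there (5974 bases) than in the deposited table (3346 bases).

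All 10 members were named, with the called genes of the pathway lists, up to 3 of the most abundant tested genes of each (1 such gene, and 1 marker gene, are not reported here), and the 5 genes most like the most abundant member. Fzd9, Fzd10, Wif1, Rnf43, Znrf3, Dvl2, the marker genes and the comparisons of Lrp6 and Fzd9 with the members were chosen after their values were seen. Members and lists were chosen with earlier results of these data known.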

Additional observations from a re-analysis of the deposited data

Results flagged for a closer look

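In control 3 the summed Frizzled level was 2.43 RPKM, against 3.00 to 3.10 RPKM in the other controls. The gap to its nearest neighbour was 0.845 of the range of the group, which is above Dixon's 95% critical value for 4 samples. It was the only one of 26 groups examined in which a library stood out in this way, and chance gives 1.3 in 26. Without control 3 the mean log2 difference of the summed Frizzled level between the genotypes was 0.14. Control 3 had no Fzd1 count and the lowest Fzd5 level of the controls.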

How the results depend on the processing

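Most receptor values kept their direction and their side of the threshold. The 25 genes called over the whole table became 290 without a filter on low counts, 13 with at least 10 counts in every library, 138 in DESeq2, 101 in limma-voom, 38 with the limit on the adjusted p at 0.1 and none on the fold change, and 10 to 152 with each library left out, 152 being without knockout 3. Without a filter 1 member was called, Fzd1 (log2 fold change 2.44, edgeR adjusted p = 0.0311); in the other fits its adjusted p lay between 0.107 and 0.796. Requiring 10 counts in every library left only 2 members to test. Fold changes near 0 changed sign: Lrp6 to -0.033 with upper-quartile scaling and -0.0039 with the run of label numbers as a block, and in limma-voom Fzd4 to -0.42 and Fzd7 to 0.12. With each library left out, Fzd4 ranged from -0.54 to 0.46, Fzd7 from -0.71 to 0.24 and Lrp6 from -0.13 to 0.16. Before adjustment over the 3 measures, the Fzd5 share passed 0.05 with longest transcripts (-18.2 points) and coding lengths (-20.5 points). The summed Frizzled level did so with longest transcripts (log2 difference 0.27, exact permutation p = 0.0286), and lay between 0.14 and 0.27 when single libraries were omitted. Among Fzd1 to Fzd8, Fzd6 rather than Fzd5 had the highest mean level with longest transcripts and without control 1, control 2, control 4 or knockout 2. Lrp6 exceeded 7 to 9 members under every length and omission tried, and with coding lengths Fzd9 exceeded 5 of 8. The causes were not tested. No paired analysis was possible because the groups share only 1 number in their labels.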
